A study of Mus musculus with 6 samples.

Results

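The genes described here encode the proteins that mark and license replication origins: the origin recognition complex (ORC) genes Orc1, Orc2, Orc3, Orc4, Orc5 and Orc6, the loading factors Cdc6 and Cdt1, and the licensing inhibitor Gmnn (geminin). They are 9 of the 21900 protein-coding genes in the RefSeq table of assembly GRCm38.p6. They were chosen by name, with earlier results of these data known. A peak counted for a gene when any base of it lay inside the gene's annotated span or within 1000 bp of it. ORC binds DNA at origins and serves as the platform on which Cdc6 and Cdt1 load the MCM helicase in G1, and geminin binds Cdt1 and blocks loading once S phase has begun. E2F transcription factors are known to drive many genes of DNA replication at the passage from G1 into S phase, Cdc6, Cdt1 and Orc1 among the textbook examples.

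Chromatin immunoprecipitation and sequencing (ChIP-seq) was done in NIH/3T3, an established mouse embryonic fibroblast line. The antibody is not given in the sources used here. One group carried a stably integrated E2F1 construct that doxycycline switches on, and the control group carried an empty vector (EV) of the same inducible kind. All cells, EV included, were kept in 0.25% serum for 48 hours and then given doxycycline for 12 hours, and each group had 2 libraries. The series set out to map the genes that E2F1 regulates as resting cells re-enter the cell cycle. Whether each line was a clone or a pool, and whether replicates came from separate cultures, is not given in the sources used here. The p-value below therefore compares these libraries only and cannot be read as covering separate cultures. The labels also name 2 input samples of the EV cells, which were not analysed here.

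The E2F1 lists held 7836 and 8027 peaks in replicates 1 and 2, the EV lists 70 and 358. Every listed peak had a −log10 p of at least 10. The deposited fold enrichment of a peak is the ratio of the read pileup at its summit to the local background, and pileup and background were solved from it and the p-value. The lowest background that several peaks of a library shared was used as the genome-wide level. It was 1.85 and 1.86 reads in the E2F1 libraries and 2.20 and 1.18 reads in EV replicates 1 and 2. At that level a site had to reach 16 reads to enter either E2F1 list, 17 reads in EV replicate 1 and 13 reads in EV replicate 2. Where the local background is higher, more reads are needed. A gene without a peak is therefore one with no site that passed the p filter, not a gene without signal. Fold and score are the authors' own values and describe peaks within their list.

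The sequences that bear on the peaks are the matches to the E2F recognition motif in the RefSeq promoter windows (GRCm38.p6), which run from 250 bases before to 50 bases after an annotated start. The strict motif was any of the words TTTCCCGC or TTTCGCGC or TTTGCCGC or TTTGGCGC, and the loose motif was the same words without their first T, so that every strict match is also a loose one. Both strands were searched. Windows were held for 8 of the 9 genes, 11 windows in all, and none for Gmnn. The strict motif was found in 4 of the 11 windows, those of Cdt1, Cdc6, Orc1 and Orc3, and the loose motif also in Orc4. Shown 5′ to 3′ on the gene's own strand, with the matches in capitals, are the 30 bases around them at chr8:122568029-122568058 (plus strand) for Cdt1, chr11:98908002-98908031 (plus strand) for Cdc6, chr4:108579416-108579445 (plus strand) for Orc1, chr4:34614965-34614994 (minus strand) for Orc3 and chr2:48949390-48949419 (minus strand) for Orc4.
Cdt1: atccGCGGGAActaccttTTTGGCGCcatg
Cdc6: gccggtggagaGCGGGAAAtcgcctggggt
Orc1: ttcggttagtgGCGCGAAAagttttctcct
Orc3: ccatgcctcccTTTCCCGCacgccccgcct
Orc4: agccgggcggggGCGGGAAgagggaggaag

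Cdt1 carried a loose match as well as the strict one, and they lay 18 to 24 and 32 to 39 bases after its start. Cdc6 and Orc1 carry their strict match on the opposite strand, as Orc4 does its loose match and Cdt1 the loose match at 18 to 24. The printed letters of these matches are therefore the reverse complements of the words. The strict motif was held by 2.85% of all 21263 windows of protein-coding genes, by 5.96% of the 6256 windows overlapped by a peak in both E2F1 lists and by 1.29% of the 13641 overlapped in neither. For the loose motif the shares were 12.1%, 23.5% and 6.48%. A match is a description of the letters and not evidence of a site.

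The 250 bases before the Cdt1 start, chr8:122567765-122568014 on the plus strand, are shown because this gene had the strongest peak of the set. They held no E2F match under either motif, and the capitals mark a GC box (GGGCGG). In the 250 bases before the start, 42.6% of all windows held that motif, and 71.5% of those overlapped by a peak in both lists.
Cdt1 upstream: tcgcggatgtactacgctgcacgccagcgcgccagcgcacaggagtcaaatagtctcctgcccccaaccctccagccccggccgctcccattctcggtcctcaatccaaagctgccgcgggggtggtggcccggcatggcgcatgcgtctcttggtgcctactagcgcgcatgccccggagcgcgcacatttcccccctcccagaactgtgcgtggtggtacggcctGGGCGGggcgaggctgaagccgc

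In cells with induced E2F1, a peak was listed at 7 of the 9 genes in replicate 1 and at 7 in replicate 2, while both EV lists held none at any of them. Under the same rule 36.9% and 38.2% of all protein-coding genes had a peak in E2F1 replicates 1 and 2, against 0.0365% and 0.406% in EV replicates 1 and 2. Orc2, Orc5, Orc6, Cdc6, Cdt1 and Gmnn had a peak in both E2F1 lists, 6 of 9 genes beside 34.4% of all protein-coding genes, or 34.3% when genes with an EV peak are left out. Orc1 was listed in replicate 1 only and Orc3 in replicate 2 only, and Orc4 in neither. The E2F1 libraries thus averaged 7 ± 0 genes with a peak (SD, n = 2) and the EV libraries 0 ± 0 (SD, n = 2), with no overlap. A permutation of the 4 libraries (exact, two-sided) returned p = 0.333, which is the lowest value that 2 against 2 libraries can reach, so this design cannot pass 0.05. With the count limited to peaks within 1000 bp of a gene boundary, Orc1 dropped out, and the shares of all protein-coding genes were 33.3% and 34.4% in the E2F1 lists, 0.00913% and 0.0959% in the EV lists, and 30.9% in both E2F1 lists together. With the count limited to peaks at or above the median score of the E2F1 peaks, 312, 5 and 4 members remained in E2F1 replicates 1 and 2, beside 18.9% and 21.2% of all protein-coding genes, and 4 members in both lists, beside 16.9%. EV replicates 1 and 2 then listed none of the members, beside 0.00457% and 0.00913%. Every gene with a peak had a single peak per list.

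**Figure D1:**
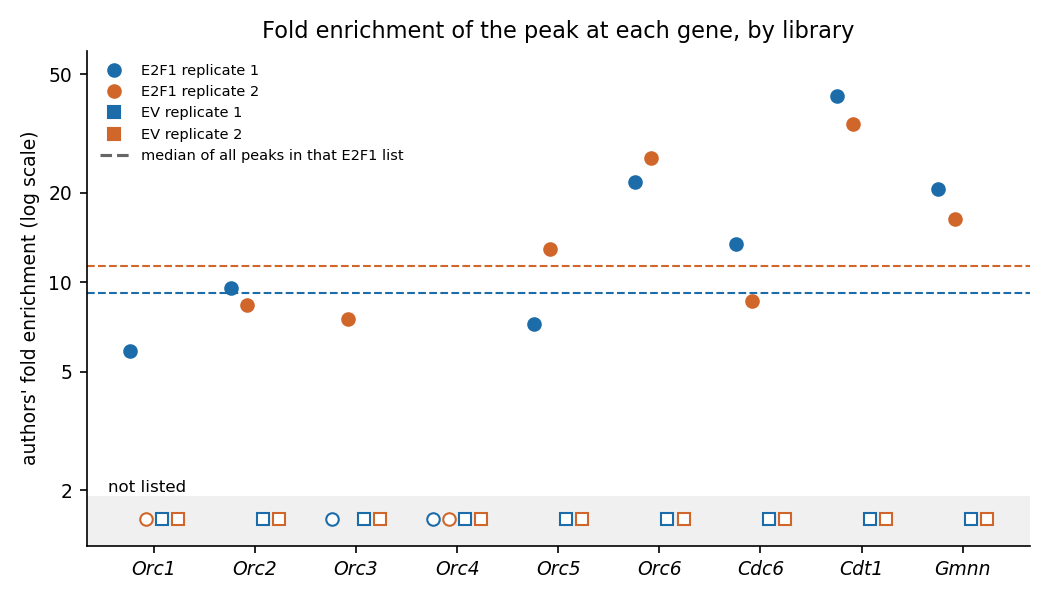
Authors' fold enrichment (log scale) of the peak at each of the 9 genes, with circles for the E2F1 libraries and squares for the EV libraries, and open symbols in the grey band for a gene not listed. Cdt1 is highest in both E2F1 lists at 42.4 and 34.1, Orc4 is listed nowhere, and all EV symbols lie in the grey band; dashed lines mark the median fold of all peaks in each E2F1 list, 9.19 and 11.3.

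Cdt1, which brings the MCM helicase to ORC, had the strongest peak of the set in both lists. Its fold was 42.4 in E2F1 replicate 1, rank 65 of 7836, and 34.1 in replicate 2, rank 603 of 8027, and EV listed nothing there. The summit pileup was 205 reads in replicate 1 and 216 in replicate 2, so the lower fold of replicate 2 went with a higher local background, 5.37 reads against 3.86. The peak spanned chr8:122567605-122569446 in replicate 1 and chr8:122567519-122568723 in replicate 2. Both cover the start of the gene, whose whole span is 5116 bp. The summits lay 160 and 42 bp after the start, 124 and 6 bp from the strict E2F match shown above. By likeness of the 2 folds, measured as distance on the log2 scale over these 2 libraries, the nearest other genes were Cenpm with folds of 43.6 and 33.9, and Ncapd2 and Mrpl51, each with 41.0 and 34.9. Ncapd2 and Mrpl51 had identical folds in both lists, so these may be 1 peak counted for both genes.

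Cdc6, the ATPase that joins ORC to start loading, had a weaker peak. The fold was 13.5 in replicate 1 (rank 2110) and 8.62 in replicate 2 (rank 5255), which put it above the list median in replicate 1 and below it in replicate 2. The reads at the summit were nearly the same, 54 and 51, over local backgrounds of 3.09 and 5.03 reads. The peaks lay at chr11:98907216-98908352 and chr11:98907384-98908196. The promoter table places the start of Cdc6 at 98908151, 442 bp inside the annotated span, and the summits lay at −153 and −177 bp from that start, on its upstream side. They were 18 and 42 bp from the strict match. Over the 373 promoter windows with a strict match and a peak in both lists, the median distance from the match to the nearest summit was 176.5 bp in replicate 1 and 113.5 bp in replicate 2.

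Gmnn encodes geminin, the inhibitor of Cdt1. Its peak had folds of 20.6 and 16.3, ranks 822 and 2563, over 77 and 91 reads. As at Cdt1, replicate 2 had more reads and a higher local background, 4.65 against 2.78 reads. The peaks spanned chr13:24760945-24761958 and chr13:24761115-24762039, and the summits lay 195 and 235 bp inside the upper boundary of the span. Thus the loading factor Cdt1 and its inhibitor were both listed with a fold above their list's median in both E2F1 libraries.

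**Figure D2:**
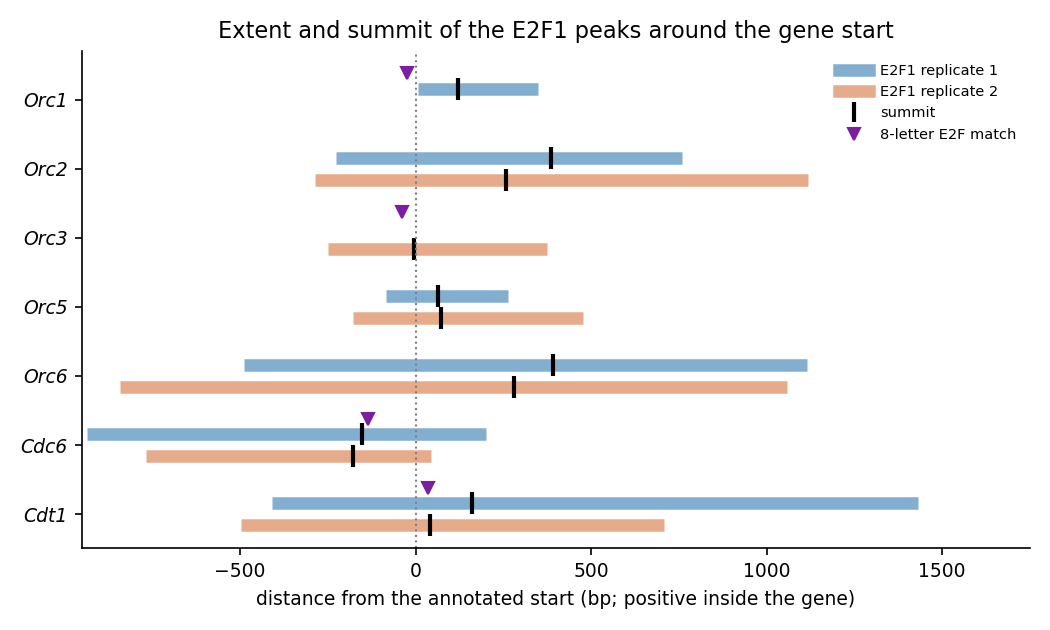
Extent (bars) and summit (black ticks) of each E2F1 peak relative to the annotated start of its gene, in bp, for the 7 genes with a peak and a promoter window, with triangles at strict E2F matches. Bars cover the start in every gene but Orc1, whose peak begins 6 bp after it, and the Cdc6 summits lie before the start while those of Orc2, Orc5, Orc6 and Cdt1 lie after it.

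The ORC genes ranged from Orc6, among the stronger peaks of both lists, to Orc4, which had none. Orc6, the smallest subunit, had folds of 21.8 and 26.1, ranks 711 and 1124, over 97 and 104 reads. Its peaks were among the widest, 1605 and 1901 bp, at chr8:85299142-85300746 and chr8:85298791-85300691. The summits lay 392 and 281 bp after the start, and no E2F match, strict or loose, was found in its promoter window, which holds GC boxes and a CCAAT word. The summits were outside that window. The peaks also reached the boundary of Vps35, a retromer gene, 507 and 396 bp from the summits, so they cannot be assigned to Orc6 alone.

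Orc2 had folds of 9.57 and 8.35, ranks 3683 and 5407, just above the list median in replicate 1 and below it in replicate 2. Its summits held 75 and 72 reads, and its local backgrounds, 6.94 and 7.74 reads, were the highest of the set, 3.75 and 4.17 times the genome-wide level. Ranked by pileup in place of fold, Orc2 stood above 75.2% and 73.6% of its lists, against 53.0% and 32.6% by fold. The peaks spanned chr1:58504351-58505336 and chr1:58503991-58505394, with summits 387 and 257 bp after the start. The start of the long non-coding RNA Gm15834 lies 6 bp from that of Orc2 on the other strand.

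Orc5 had folds of 7.24 and 12.9, the only member besides Orc6 with the higher fold in replicate 2. The pileups were 23 and 36 reads over 2.31 and 1.86 reads. The peaks, at chr5:22550074-22550422 and chr5:22549861-22550516, had summits 63 and 74 bp after the start, 11 bp apart. The long non-coding RNA 6030443J06Rik starts 75 bp away on the other strand. No E2F match was found in the Orc5 window.

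Orc1 and Orc3 were each listed in 1 replicate, with the lowest member fold of that list. Orc1, the subunit whose level changes through the cell cycle in mammalian cells, had a fold of 5.87 in replicate 1, rank 6484, with a −log10 p of 13.3 and 23 reads over 3.09. The peak was 343 bp wide, at chr4:108579460-108579802. It lies inside the annotated span, 3749 bp of which precede the start in the promoter table, and its summit was 120 bp after that start. The strict match of the Orc1 window lay at −27 to −20, outside the peak. Prpf38a, a splicing factor gene, starts 118 bp from Orc1 on the other strand, with the summit 238 bp from its start. In replicate 2 the nearest listed peak was 3346 bp outside the span of Orc1, at the boundary of Cc2d1b, with a fold of 17.7, and replicate 1 listed a peak there too, 3314 bp outside, with a fold of 9.86. Of all members, Orc1 had the nearest peaks outside the 1000 bp limit.

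Orc3 had a fold of 7.52 in replicate 2, rank 5866, with a −log10 p of 17.0 and 24 reads over 2.32. The peak spanned chr4:34614568-34615192, and its summit was at −3 bp from the start and 34 bp from the strict match. Rars2, a mitochondrial arginyl-tRNA synthetase gene, starts 15 bp away on the other strand, so the peak lies over both starts. In replicate 1 the nearest listed peak was 15.4 kb away, near Akirin2. A presence in one list and not in the other was not tested as a difference between the replicates, since values under the limit are not in the lists.

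Orc4 was the single gene with no peak in any list. The nearest E2F1 peaks were 87.8 kb away in both replicates, at the boundary of Acvr2a, with folds of 15.02 and 16.1. Its span is 50.1 kb, longer than that of every other member but Orc5, and it has 3 promoter windows. One of them holds the loose match printed above, at −140 to −134 from its start, and all 3 hold a GC box. Cdt1, with the shortest span of the set, had the strongest peak.

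All member peaks but that of Orc1 had their summit within 1000 bp of a boundary of the gene. A place near a boundary was usual for all genes, counted here by any base of a peak and not by its summit. Of the protein-coding genes with a peak, 7295 of 8085 in replicate 1 and 7528 of 8364 in replicate 2 had a peak within 1000 bp of a boundary. Under that rule it was 6 of 7 and 7 of 7 members. Over the genes with a promoter window, the median distance from summit to start was 156.5 bp in replicate 1 and 125.5 bp in replicate 2, and the largest was 392 bp. In the 6 genes listed in both replicates the summits of the replicates were 11 to 130 bp apart, and the overlap covered 53.2% to 83.2% of the wider peak. The promoter windows of the members had a median GC content of 63.3%, beside 65.3% in windows with a peak in both lists and 56.3% in all windows. The CHR-like words TTTGAA or TTCGAA, which mark many late cell cycle genes, were found in 0 of the 11 member windows, beside 17.6% of all windows and 11.4% of those overlapped by a peak in both lists.

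**Figure D3:**
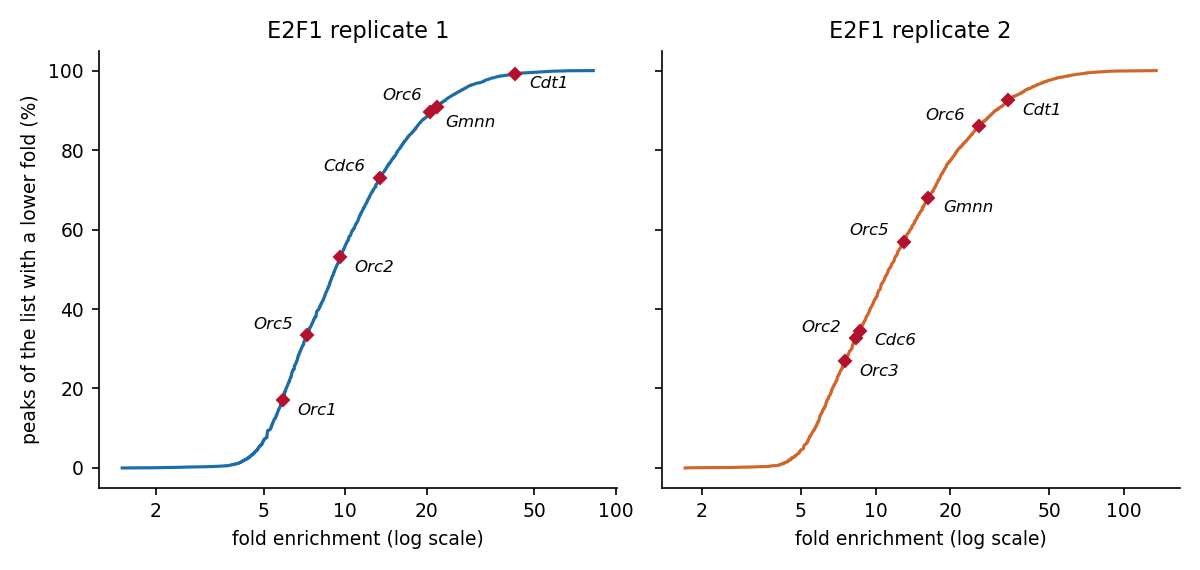
Share of peaks in each E2F1 list with a lower fold (percent) against fold enrichment (log scale), with the member peaks as red diamonds on the curve. In replicate 1 the members run from Orc1 at 17.1% to Cdt1 at 99.2%, and in replicate 2 from Orc3 at 26.8% to Cdt1 at 92.5%.

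By fold, the member peaks ran from 17.1% to 99.2% of the list in replicate 1 and from 26.8% to 92.5% in replicate 2. The median fold was 13.5 over 7 peaks in replicate 1, beside 9.19 for the list, and 12.9 over 7 peaks in replicate 2, beside 11.3. Those list medians cover every peak, not 1 peak per gene. Over the 6 members listed in both replicates the median fold was 17.0 in replicate 1 and 14.6 in replicate 2. The strongest peaks of the 7537 protein-coding genes listed in both had medians of 10.2 and 13.1, so the gap in replicate 2 was small. The fold was above the list median at 5 of 7 peaks and at 4 of 7. Orc6, Cdt1 and Gmnn were above it in both lists, and the order Cdt1, Orc6, Gmnn at the top was the same in both. Below them Orc5 ranked under Cdc6 and Orc2 in replicate 1 and above both in replicate 2, while Cdc6 stayed above Orc2. The order of these weaker genes thus differed between the replicates.

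The fold of a gene also differed between the replicates. It was higher in replicate 2 at 5341 of 7537 protein-coding genes with a peak in both lists (70.9%), with a median ratio of replicate 2 to replicate 1 of 1.26. At the members it was higher in 2 of 6 genes, with a median ratio of 0.837. The ratio ran from 0.640 at Cdc6 to 1.79 at Orc5. At Cdt1, Cdc6, Gmnn and Orc2, the members with the lower fold in replicate 2, the local background was higher in that replicate. With 6 genes and 2 libraries no test of this difference was made, and the part of the background in it was not tested.

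**Figure D4:**
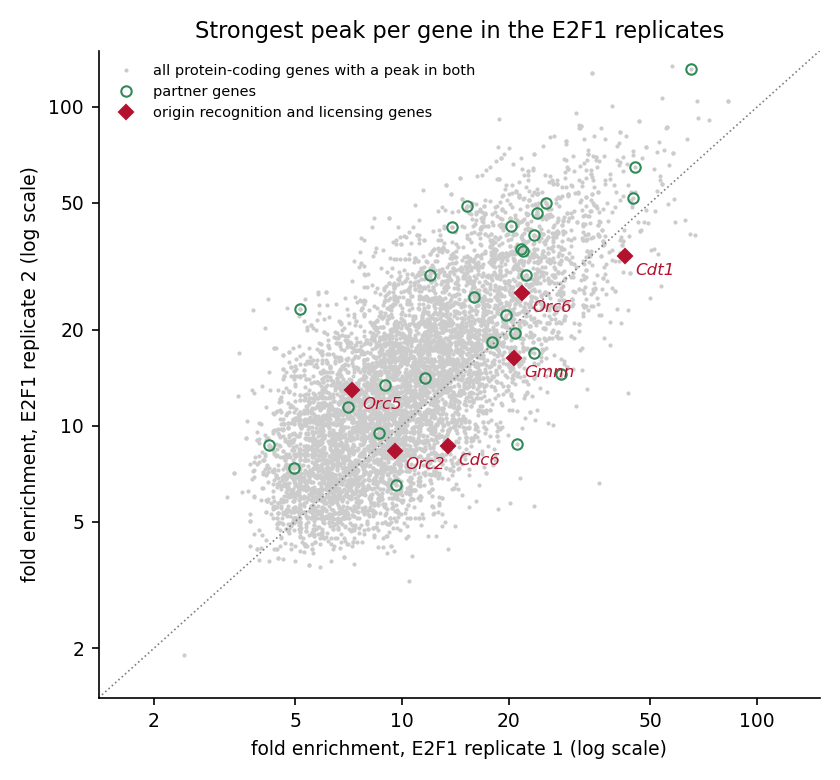
Fold enrichment of the strongest peak per gene in E2F1 replicate 1 (x) and replicate 2 (y), both on log scales, for all protein-coding genes with a peak in both lists (grey), the partner genes (green circles) and the 6 members (red diamonds). Cdt1, Gmnn, Cdc6 and Orc2 lie below the dotted line of equal fold and Orc6 and Orc5 above it.

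Other genes of the licensing pathway were taken from a list of 32 partners: the MCM helicase subunits, proteins that act with ORC and MCM on chromatin, ubiquitin pathway genes that destroy or spare licensing factors, the S phase cyclins and kinases, and the relatives of geminin. Like the members, these partners were chosen with earlier results of these data known, so their counts are described and not tested. A peak in both E2F1 lists was found at 28 of the 32, at 1 in replicate 2 alone and at 3 in neither, and no EV list held one at any, beside 34.4% of all protein-coding genes listed in both E2F1 libraries. With the count limited to peaks within 1000 bp of a gene boundary, 23 of the 32 had one in both lists, beside 30.9%. With peaks at or above a score of 312 alone it was 23 of the 32, beside 16.9%. Under the main rule, all 6 MCM helicase genes, the cargo that Cdc6 and Cdt1 load, had a peak in both lists. Their mean folds over the replicates were 9.27 to 28.6. All 6 cyclin and kinase genes had one too. The highest mean folds of the list were at Ccne1 (98.3 ± 47.1, SD, n = 2) and Ccne2 (54.9 ± 13.6, SD, n = 2), the E-type cyclins, and at Cdc7 (48.3 ± 5.15, SD, n = 2), the kinase that fires licensed origins. Cdt1, at 38.2 ± 5.89 (SD, n = 2), had a lower mean fold than these 3. In replicate 2 other partners also had a higher fold than the 34.1 of Cdt1, so its place among the partners differed between the replicates. The median of mean folds was 20.9 over the 28 partners and 14.8 over the 6 members, beside 11.8 over all protein-coding genes listed in both.

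The partners without a peak were Cdc20, an activator of the anaphase-promoting complex, and Gmnc and Mcidas, geminin relatives known from multiciliated cells. Gmnn itself, the member of that family that acts in licensing, was listed. Of all 21900 protein-coding genes, 12988 had a peak in neither E2F1 list, so the absence of a peak at its relatives was the more usual outcome. Lrwd1, which holds ORC on chromatin, was the partner listed in replicate 2 alone, with a fold of 4.64, and is named because it was the sole such gene. Among ubiquitin pathway genes, 13 of 14 had a peak in both lists, beside 34.4% of all protein-coding genes, with mean folds from 6.16 to 35.3.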

How the data were processed

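The 4 deposited peak lists used here are 2 of E2F1 and 2 of EV ChIP libraries. The submitters' processing notes name FastQC, Trimmomatic, Bowtie2, MACS2 and ChIPseeker and the build mm10. Antibody, control and thresholds are not given in the sources used here, and the protocols in the labels describe RNA. The columns are unnamed and were read in narrowPeak order. In every peak the deposited score was 10 times the −log10 q-value with the decimals dropped. The authors' fold column gives pileup over local background as a ratio, and −log10 p and −log10 q are the authors' values. Every list begins at a −log10 p of 10.

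Groups and replicate numbers came from the titles. The members, the partner list and the tests were chosen with earlier results of these data known. Pileup and background were solved from fold, as pileup plus 1 over background plus 1, and a Poisson p, with every peak of −log10 p up to 300 solved to within 5% of a step. The 169 peaks above 300 were left unsolved. Solver and overlap rule were tested on simulated data. Positions count from 1. Gene spans and promoter windows came from RefSeq tables of GRCm38.p6, matched by symbol and gene ID; exons were not used here. All 9 members were named in every library, with neighbours whose boundary lay within 1000 bp of a member's peak, the 3 partners of highest mean fold, the partners without a peak, and the 3 genes with folds nearest to the strongest member. Python 3.11.15, pandas 2.3.3, NumPy 2.4.6 and SciPy 1.17.1 were used. No read totals were used, and the genome-wide background stands in for depth.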

Additional observations from a re-analysis of the deposited data

How the results depend on the processing

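Of 34 alternatives over 7 results, 32 stayed within 1.5 times the reported count or within the spread between replicates. With peaks at or above a score of 312 alone, the difference in genes with a peak between E2F1 and EV was 4.5 in place of 7, and with peak centres in place of summits the median distance from the start was 209 bp in place of 141. Leaving out each library in turn, the difference was 7 in every case, with 7 genes in either E2F1 list alone and 28 to 29 partner genes. The median fold of member peaks was 12.9 to 13.5. With the replicate block the difference was 7, and the exact sign-flip p was 0.5, the smallest 2 pairs allow. One value per library cannot show whether the numbers pair the samples. Counting boundaries alone removed Orc1, the difference then being 6.5. Requiring peak centres within 200 bp left 4 of the 6 genes shared. Orc1 and Orc3 rest on 1 library each. The filter on p hides weaker sites in all lists.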
